A study of Mus musculus with 16 samples.

Results

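The 7 genes described here encode transcription factors that set intestinal and regional identity: Cdx1, Cdx2, Hnf4a, Hnf4g, Gata6, Gata4 and Elf3. They were chosen by symbol, by a rule that did not use their values, but with earlier results of these data known. Each has 1 row among the 24091 genes of the deposited expression table. RNA came from epithelial cells of the caecum, the blind sac where the large intestine begins, of C57BL/6 mice, an inbred strain, and the labels name no allele beside it. There were 9 RNA libraries in 3 groups of 3. Every group drank Splenda, the sweetened vehicle, at 10 g/L, and every group was gavaged on day 7, with tissue taken 6 h later. The vehicle group had no ampicillin and a mock gavage of 25% glycerol. The ampicillin group drank 1 g/L of this antibiotic for 7 days and had the same mock gavage. The tributyrin group drank the same ampicillin and was gavaged with tributyrin, a glycerol ester of butyrate, at a dose that the labels do not state. The labels give no ages and do not say whether each library is a different mouse. A p-value here therefore measures the spread between libraries, which may be technical. The series asks how microbial products, butyrate among them, act on histones and expression in this epithelium. The other 7 samples of the series, chromatin immunoprecipitations and an input, were not analysed here.

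CDX1 and CDX2 are homeodomain factors related to Drosophila caudal. CDX2 commits the embryonic endoderm to an intestinal rather than a gastric fate and is kept for life along the gut. HNF4A and HNF4G are paralogous nuclear receptors that open and hold enhancers of differentiated enterocytes, and GATA4 and GATA6 are zinc finger factors. GATA4 is known as the proximal member, made in duodenum and jejunum and absent from the distal ileum and large intestine, whereas GATA6 is made along the whole gut. ELF3 is an epithelial ETS factor of the intestinal lining.

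Values are per gene, so no exon, intron or UTR is assigned to them. This matters most for Hnf4a, which is transcribed from 2 starts that RefSeq places 40298 bases apart. They are known as P2 (upstream) and P1 (downstream), give proteins with different amino ends and are added together in a value per gene. The 250 bases before each start are shown, from RefSeq build GRCm38.p6, because a value per gene joins both. Capitals mark a match to the GATA letters AGATAA.
Hnf4a P2 (chr2:163506607-163506856, plus strand): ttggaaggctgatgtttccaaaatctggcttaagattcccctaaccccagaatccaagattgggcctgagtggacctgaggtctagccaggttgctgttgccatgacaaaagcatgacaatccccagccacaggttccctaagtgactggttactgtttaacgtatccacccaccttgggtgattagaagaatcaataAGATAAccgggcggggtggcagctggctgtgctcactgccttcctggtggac
Hnf4a P1 (chr2:163546905-163547154, plus strand): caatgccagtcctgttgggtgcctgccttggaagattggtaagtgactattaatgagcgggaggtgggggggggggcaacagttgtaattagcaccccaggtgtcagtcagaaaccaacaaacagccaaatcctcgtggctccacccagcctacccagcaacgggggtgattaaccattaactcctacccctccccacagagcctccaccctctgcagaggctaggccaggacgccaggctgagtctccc
The P2 window held 1 GATA match and the P1 window none. Over all 32851 promoter windows of this length, 9.99% held AGATAA. The CDX letters TTTATNG, found in 9.81% of windows, and the HNF4 letters CAAAGTCCA, found in 0.384%, matched neither window. The windows of Cdx2 (chromosome 5, 147307250 to 147307499) and Elf3 (chromosome 1, 135258473 to 135258722) matched none of the 3 motifs. Both strands were searched, and a match describes letters, not binding. Windows were read for Cdx2, Elf3 and Hnf4a, 3 of the 7.

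Levels were deposited as TPM, a share of all transcripts in the library scaled for transcript length, so levels of different genes can be set side by side. TPM keeps no read depth, so the depth of the libraries is unknown, and precision is judged by the spread of the 3 libraries of a group. Across the 12155 genes with a mean of at least 1 TPM, log2 values correlated at 0.976 to 0.981 between libraries of a group and at 0.964 to 0.975 between groups, across genes that are not independent. The 9 general epithelial markers summed to 11519 to 15231 TPM, and Epcam, the standard surface marker of epithelium, stood at 1391 ± 49.0, 1177 ± 36.4 and 1217 ± 42.1 TPM in the vehicle, ampicillin and tributyrin groups (mean ± SD, n = 3 libraries here and below). Of 8 fibroblast markers, 6 stayed under 0.5 TPM in every library, as did 5 of 6 smooth muscle markers and 3 of 6 endothelial ones. Vehicle replicate 2 stood apart in genes of the small intestine: Fabp6, the ileal bile acid binding protein, was at 345 TPM there, 12.3 and 53.4 TPM in vehicle replicates 1 and 3 and at most 4.46 TPM in any ampicillin-treated library.

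Transcripts of 4 of the 7 factors were abundant and close to each other in level. Elf3 averaged 383 ± 37.1 TPM over the 9 libraries (SD), Cdx1 387 ± 24.6, Cdx2 321 ± 24.7 and Hnf4a 284 ± 25.7 TPM. Elf3 and Cdx1 could not be ordered: Elf3 was the higher in 3 of 9 libraries. Cdx1 was above Cdx2 in 9 of 9 libraries and Cdx2 above Hnf4a in 8 of 9, although the ranges over all libraries overlapped in both cases. Each of these 4 ranked between the 367th and the 617th highest row in each library. Gata6, at 31.7 ± 2.63 TPM, and Hnf4g, at 13.7 ± 1.34 TPM, came far below with ranges that did not overlap with each other or with the 4 genes above. Gata4 was at or near 0.

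**Figure D1:**
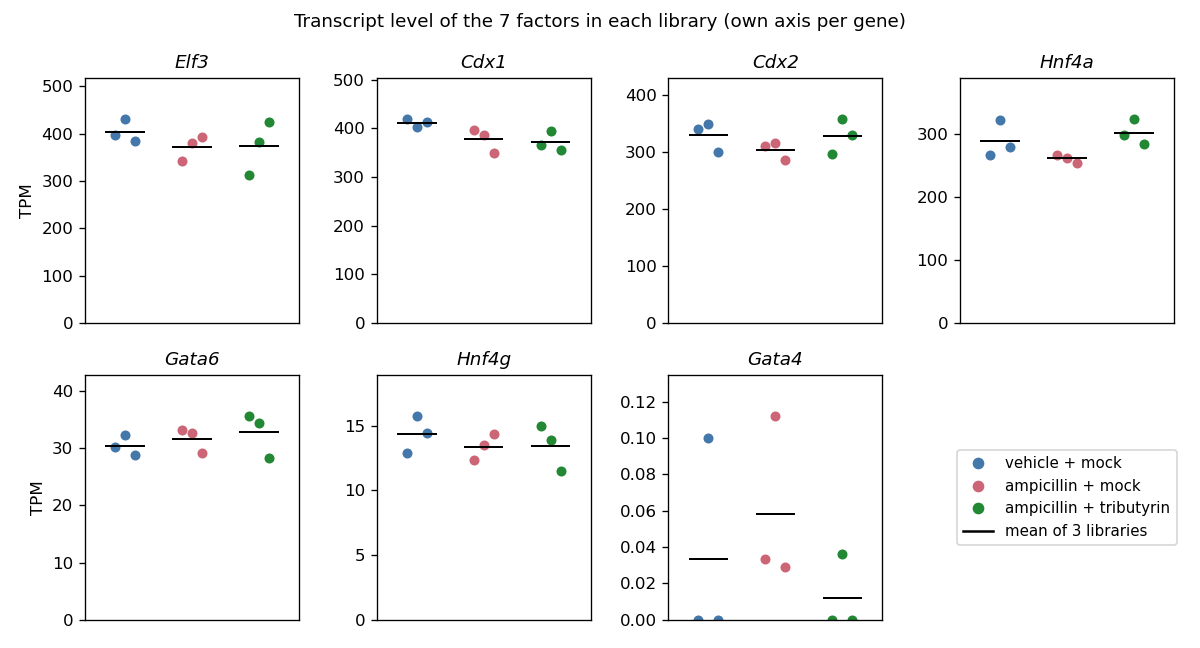
TPM of the 7 factors in each of the 9 RNA libraries, 1 panel a gene with its own axis from 0; points are libraries in order of replicate number and the black line is the mean of 3. Elf3, Cdx1, Cdx2 and Hnf4a sit between 254 and 431 TPM in every group, Gata6 and Hnf4g are lower, and Gata4 does not pass 0.112 TPM.

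The caudal factors differed little across the 3 groups. In build GRCm38.p6 of the RefSeq gene table, Cdx1 (gene ID 12590) spans chromosome 18, 61018862 to 61036199, and Cdx2 (12591) chromosome 5, 147300900 to 147307249. Cdx1 read 419, 402 and 414 TPM in the vehicle libraries, 396, 387 and 349.7 TPM in the ampicillin libraries and 367, 395 and 356 TPM in the tributyrin libraries. All 6 ampicillin-treated libraries lay below the 3 vehicle libraries. Ampicillin and vehicle libraries lay apart, in either direction, for 40.8% of genes tested, and tributyrin and vehicle libraries for 41.7%. Cdx2 read 340.1, 348 and 300.5 TPM with vehicle, 311, 315 and 286 TPM with ampicillin and 296, 358 and 330.1 TPM with tributyrin. Its groups overlapped in every pairing. The lowest and the highest of the 9 libraries differed by 1.197 times for Cdx1 and 1.25 times for Cdx2, and 15.5% and 26.6% of the tested genes had a smaller SD over the 9 libraries on the log2 scale.

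Of the HNF4 pair, Hnf4a carried nearly all transcripts. Hnf4a (15378) spans chromosome 2, 163506811 to 163572907, and Hnf4g (30942) chromosome 3, 3508030 to 3659800. Hnf4a stood at 266, 322 and 279 TPM with vehicle, 267, 262 and 254 TPM with ampicillin and 299, 323 and 283 TPM with tributyrin. The 3 tributyrin libraries were above the 3 ampicillin libraries, and these groups lay apart, in either direction, for 42.6% of genes tested. The vehicle libraries overlapped with both groups. The highest vehicle value came from replicate 2, the library with the high ileal transcripts. Hnf4g stood at 12.9, 15.7 and 14.5 TPM with vehicle, 12.3, 13.5 and 14.3 TPM with ampicillin and 14.97, 13.9 and 11.5 TPM with tributyrin, with overlap in every pairing. Hnf4a made up between 94.7% and 96.1% of the summed TPM of the pair in each library, which is 17.7 to 24.7 times the level of Hnf4g.

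The GATA pair was made up of Gata6 alone as far as these libraries show. Gata6 (14465) spans chromosome 18, 11052510 to 11085636, and Gata4 (14463) chromosome 14, 63198914 to 63271712. Gata6 read 30.3, 32.4 and 28.8 TPM with vehicle, 33.2, 32.7 and 29.1 TPM with ampicillin and 35.6, 34.5 and 28.4 TPM with tributyrin, and the groups overlapped. Its antisense neighbour Gata6os overlaps it and reached 13.0 TPM in 1 library, and with the strand setting not given in the sources used here their reads cannot be told apart. Gata4 was listed at 0 in 4 of 9 libraries. Its other values were 0.1003 TPM in vehicle replicate 2, 0.0337, 0.112 and 0.0290 TPM in the ampicillin libraries and 0.0361 TPM in tributyrin replicate 2, so no fold or test is given for it. Gata5, a related factor of the gut, was also low, at 0.8985, 2.24 and 1.22 TPM with vehicle and 0.532 to 0.9015 TPM in the ampicillin-treated libraries. The highest Gata5 value was that of vehicle replicate 2, whereas that of Gata4 was in ampicillin replicate 2.

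Elf3 (13710), on chromosome 1, 135253574 to 135258472, had the widest spread of the 6 tested factors among the tributyrin libraries. It read 397, 431 and 384 TPM with vehicle, 342, 380.1 and 392 TPM with ampicillin and 312, 383 and 425 TPM with tributyrin. The tributyrin group alone ran from below every other library to near the top of the range, a coefficient of variation of 15.3%, against 5.43% for Cdx1 and 13.4% for Hnf4g in the same 3 libraries. With vehicle it was 6.02%, below the 10.2% of Hnf4a.

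The first comparison asked what ampicillin changed under mock gavage. None of the 6 tested factors was called at an adjusted p under 0.05 (limma over 12155 genes, Benjamini-Hochberg adjustment), where 21.3% of all genes tested were, and none had an unadjusted p under 0.05 in limma either. The differences below are log2 fold changes of TPM + 1 with their SE, a scale that understates changes of low genes. The difference was -0.13 ± 0.060 for Cdx1 (adjusted p = 0.181), -0.14 ± 0.078 for Hnf4a (adjusted p = 0.233) and -0.11 ± 0.083 for Cdx2 (adjusted p = 0.381). It was -0.12 ± 0.11 for Elf3, -0.10 ± 0.11 for Hnf4g and 0.053 ± 0.093 for Gata6. Thus 5 of 6 estimates lay below 0, with a median of -0.12 beside 0.024 over all genes tested. The 95% interval ran from 0.833-fold to 1.01-fold for Cdx1, the narrowest, and from 0.774-fold to 1.09-fold for Elf3, the widest. Only for Cdx1 did the libraries of both groups not overlap, which held for 40.8% of genes tested.

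**Figure D2:**
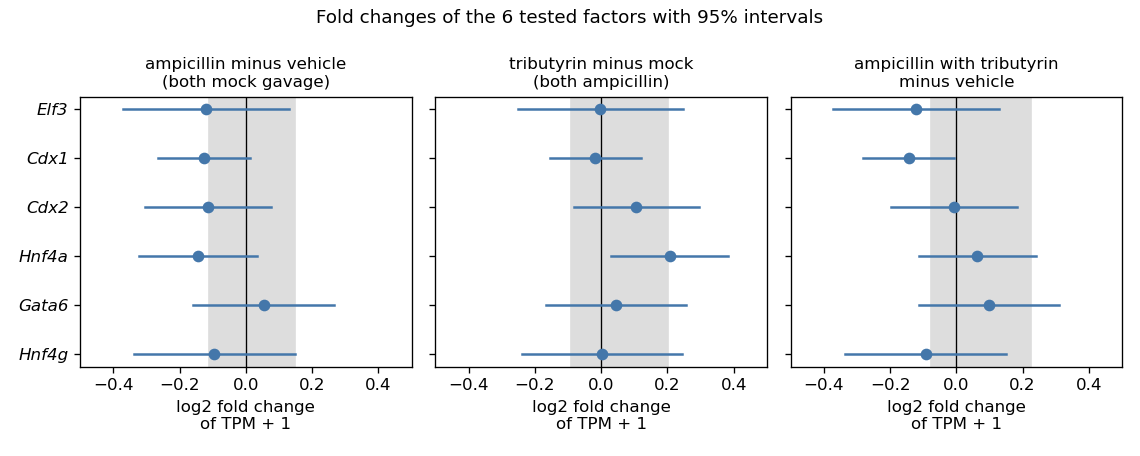
Log2 fold changes of TPM + 1 for the 6 tested factors in the 3 comparisons; points are estimates, lines 95% intervals from limma, and the grey band spans the middle 50% of all genes tested. The intervals reach from -0.37 to 0.38, and the interval of Hnf4a with tributyrin and that of Cdx1 in the last comparison do not include 0 before adjustment.

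The effect of tributyrin, 6 h after gavage and in the presence of ampicillin, was the next comparison. Again none of the 6 was called, where 23.2% of genes tested were (15.6% higher and 7.54% lower). Hnf4a had the largest difference of the 6, 0.21 ± 0.078, with an interval of 1.02-fold to 1.31-fold, and it did not pass the correction (adjusted p = 0.0863, higher in 3 of 3 tributyrin libraries than in any ampicillin library). Groups without overlap made up 42.6% of genes tested. Hnf4a was called in 3 of 20 alternatives, among them without vehicle replicate 2 (adjusted p = 0.0368), a library that enters this comparison only through the shared spread, and with array quality weights (0.0199), and adjusted p ranged up to 0.247 over the 20. The remaining differences were 0.11 ± 0.083 for Cdx2, 0.045 ± 0.093 for Gata6, 0.0027 ± 0.11 for Hnf4g, -0.0023 ± 0.11 for Elf3 and -0.018 ± 0.060 for Cdx1. Those of Cdx1, Elf3, Hnf4g and Gata6 changed sign when single libraries were left out, and those of Hnf4g and Gata6 also with median-of-ratios scaling and that of Hnf4g with quantile normalization. The median of the 6 was 0.024, beside 0.049 over all genes tested.

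The third comparison set tributyrin with ampicillin against vehicle with mock gavage and shares its libraries with the other two. None of the 6 was called, where 28.3% of genes tested were (19.1% higher and 9.21% lower). Cdx1 came nearest, at -0.14 ± 0.060 (adjusted p = 0.109), and it was lower in 3 of 3 tributyrin libraries than in any vehicle library, as 41.7% of genes tested were apart. With median-of-ratios scaling Cdx1 was called (-0.22, adjusted p = 0.0330). Hnf4a, Cdx2 and Gata6 differed by 0.063 ± 0.078, -0.0081 ± 0.083 and 0.099 ± 0.093, and Hnf4g and Elf3 by -0.093 ± 0.11 and -0.12 ± 0.11. The sign of Hnf4a turned with median-of-ratios scaling, and those of Cdx2, Hnf4g and Elf3 turned when single libraries were left out. Scaling bore on the split of all calls: 67.5% of calls were higher in the second and in the third comparison as deposited, but 50.03% and 47.1% with median-of-ratios scaling, and 47.1% and 50.3% with quantile normalization.

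The balance within each pair was set beside these values as a log2 ratio per library. Hnf4a over Hnf4g averaged 4.24 ± 0.051 with vehicle, 4.19 ± 0.14 with ampicillin and 4.39 ± 0.15 with tributyrin, and the tributyrin and ampicillin groups differed by 0.20 (exact two-sided permutation p = 0.2, adjusted p = 0.54 over 9 tests). Cdx2 over Cdx1 averaged -0.32 ± 0.13, -0.31 ± 0.034 and -0.19 ± 0.10, with no adjusted exact p below 0.54. Gata6 over Gata4 followed Gata6, since Gata4 was near 0. With 3 libraries against 3 the smallest exact p is 0.1, so no shift in balance could have passed the test, and these ratios are a description.

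Among themselves the 6 tested factors moved together only in part. Over the 9 libraries Cdx2 and Hnf4a had a Pearson correlation of log2 values of 0.62, Cdx1 and Cdx2 of 0.46, Hnf4a and Hnf4g of 0.43, and Gata6 and Elf3 of -0.64. Gata6 was lowest and Elf3 second highest of all libraries in tributyrin replicate 3, and Gata6 highest and Elf3 lowest in tributyrin replicate 1. By the same measure the gene nearest to Cdx1 was Ecsit (0.97), to Cdx2 Fzd2 (0.92), to Hnf4a Cpne2 (0.97), to Hnf4g Ncoa2 (0.98), to Gata6 Tmem184b (0.97) and to Elf3 Sdc4 (0.94). Ncoa2, a nuclear receptor coactivator, ran from 6.40 TPM in tributyrin replicate 3, where Hnf4g was lowest, to 8.61 TPM in vehicle replicate 2, where Hnf4g was highest. These likenesses are ranked out of all tested genes over only 9 libraries that share their composition, and they describe the libraries.

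The nearest relatives of the factors, fixed as a list by family, were described in the same way. Of 15 paralogues 8 were tested, and 0 were called in the first or the second comparison, beside 21.3% and 23.2% of all genes tested. No test set these counts of 8 genes apart from those shares. The medians were -0.080 and 0.094. With ampicillin 1 was called without vehicle replicate 1 and 1 without vehicle replicate 2. Ehf, an epithelial ETS factor like Elf3, read 65.8 ± 4.603, 71.9 ± 1.17 and 73.1 ± 3.19 TPM in the vehicle, ampicillin and tributyrin groups, and Elf1, a broadly expressed one, 33.6 ± 3.12, 32.0 ± 0.472 and 34.7 ± 3.18 TPM. In the third comparison 1 of the 8 was called, beside 28.3% of all genes tested. It was Rxra, the retinoid X receptor, which fell by 0.16 ± 0.050 (adjusted p = 0.0450). The call was lost in 11 of 20 alternatives, every left-out library but vehicle replicate 1 among them (adjusted p = 0.0584 to 0.141).

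Among 25 other tested factors of the gut epithelium, 3 rose and 3 fell with ampicillin, and 2 rose and 2 fell with tributyrin. These are 24% and 16% of the list, beside 21.3% and 23.2% of all genes tested, so the first share is near the background and the second below it. With ampicillin 3 were called without ampicillin replicate 2 or 3. With tributyrin 1 was called without vehicle replicate 3, ampicillin replicate 2 or 3 or tributyrin replicate 2, and 2 without tributyrin replicate 1. Isx, an intestinal homeobox gene that lies downstream of CDX2, rose with ampicillin from 94.9 ± 2.23 to 119 ± 1.44 TPM (0.33 ± 0.055, adjusted p = 0.00378) and read 122 ± 8.54 TPM with tributyrin. Foxa3, a forkhead factor of the endoderm, fell with ampicillin from 18.9 ± 1.52 to 14.1 ± 1.28 TPM and rose with tributyrin to 22.2 ± 1.38 TPM (-0.40 ± 0.082, adjusted p = 0.00992, and 0.62 ± 0.082, adjusted p = 0.00178). Both comparisons share the ampicillin libraries. Maf, a basic leucine zipper factor of mature enterocytes, fell from 3.95 ± 1.58 to 1.495 ± 0.347 TPM with ampicillin. Klf5, a crypt factor, was not called in any comparison, at 187 ± 14.3, 181 ± 16.2 and 205 ± 36.3 TPM in the vehicle, ampicillin and tributyrin groups.

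Hox genes record position along the body axis, and here some of them moved and the 6 tested factors were not called. The Hox list was chosen with earlier results of these data known. Of 36 on the list 20 were tested, and with ampicillin 7 fell and 1 rose, at a median of -0.33 beside 0.024 over all genes tested, where 10.2% of genes fell and 11% rose. Hoxa9 went from 27.7, 22.7 and 23.5 TPM to 15.02, 17.3 and 14.7 TPM (-0.62 ± 0.088, adjusted p = 0.00167). Hoxa10 went from 33.3, 28.4 and 27.8 TPM to 20.6, 20.1 and 19.8 TPM (-0.54 ± 0.11, adjusted p = 0.00871). For both genes every ampicillin library lay below every vehicle library, where these groups lay apart, either way, for 40.8% of genes tested. Hoxa13, which marks the hindmost gut, moved the other way, from 0.747, 0.976 and 0.552 TPM to 3.02, 3.41 and 2.07 TPM (1.11 ± 0.20, adjusted p = 0.00476). With tributyrin, Hoxa9 stayed at 16.2 ± 0.747 TPM, and the 1 gene called was Hoxb7 (25.2 ± 2.41 against 33.4 ± 4.58 TPM, adjusted p = 0.0382), which was lost in 9 of 20 alternatives, quantile and median-of-ratios scaling among them. Hoxb13 was listed at 0 in all libraries. The number that fell with ampicillin dropped from 7 to 2 without vehicle replicate 1 or ampicillin replicate 1, to 3 without ampicillin replicate 3 and to 4 without vehicle replicate 3 or ampicillin replicate 2; Hoxa9 and Hoxa10 were called in all 20 alternatives and Hoxa13 in the 19 that tested it. With tributyrin 5 rose without tributyrin replicate 1, 1 fell and none rose without vehicle replicate 1 or tributyrin replicate 2 or 3, and none was called without ampicillin replicate 1 or 2.

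**Figure D3:**
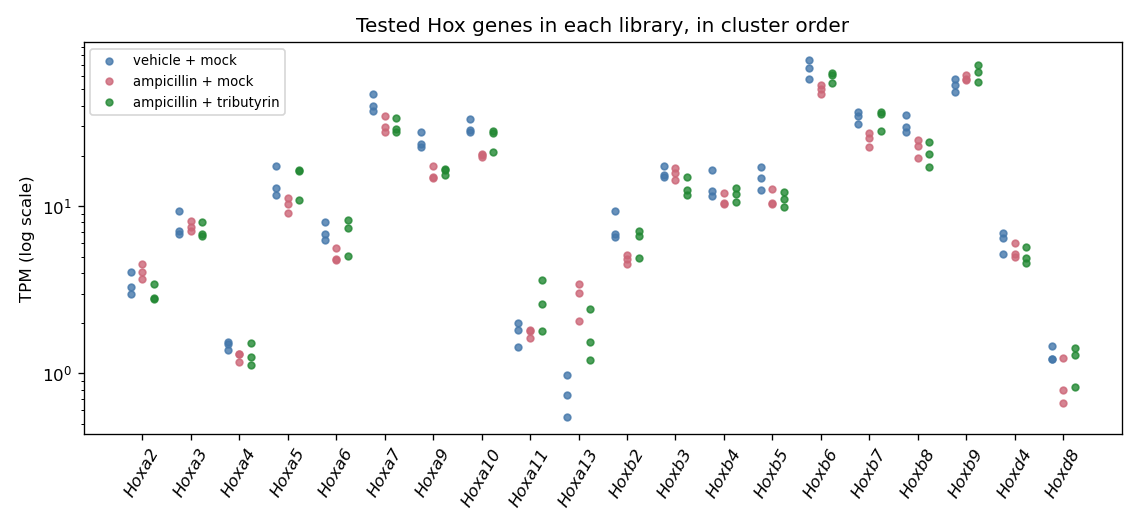
TPM on a log axis of the 20 tested Hox genes in each library, in cluster order; each point is 1 library, coloured by group. Hoxa9 and Hoxa10 lie lower in the ampicillin libraries than with vehicle, and Hoxa13 higher.

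Genes that textbooks place downstream of these factors were described next to them, as counts. The target lists were chosen with earlier results of these data known, so their called shares are a description. Of 20 tested genes known to be driven by CDX factors, 7 fell and 2 rose with ampicillin and 4 fell and 2 rose with tributyrin. Over all genes tested, 10.2% fell and 11% rose with ampicillin and 7.54% fell and 15.6% rose with tributyrin. The called share of the list was 45% and 30%, beside 21.3% and 23.2%. Alpi, the brush border alkaline phosphatase, fell from 31.2 ± 3.78 to 13.2 ± 0.604 TPM with ampicillin (-1.17 ± 0.12, adjusted p = 0.000267). Cldn2, a pore-forming claudin, fell from 39.1 ± 5.76 to 24.6 ± 0.512 TPM with ampicillin and rose to 48.1 ± 7.08 TPM with tributyrin (0.93 ± 0.12, adjusted p = 0.00175). Cdh17, the liver-intestine cadherin, was not called in any comparison and read 378 ± 47.4, 405 ± 10.6 and 353 ± 25.2 TPM. Villin, Vil1, fell by 0.29 ± 0.059 with ampicillin, from 536 ± 41.6 to 436 ± 9.88 TPM (adjusted p = 0.00902). Genes of this list moved in both directions, and neither Cdx1 nor Cdx2 was called.

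Of 21 tested genes known to be driven by HNF4 factors, a list that also holds Cdx2 and Vil1, 6 rose and 5 fell with ampicillin and 4 rose and 1 fell with tributyrin. The called share of the list was 52.4% with ampicillin, beside 21.3% of all genes tested, and 23.8% with tributyrin, the same as the background of 23.2% to within 1 gene. Apob, the apolipoprotein of chylomicrons, rose with ampicillin from 12.0 ± 2.66 to 25.1 ± 2.47 TPM (1.02 ± 0.15, adjusted p = 0.00193). Ttr, the thyroxine carrier transthyretin, rose with tributyrin from 70.0 ± 1.80 to 96.9 ± 6.21 TPM (0.46 ± 0.058, adjusted p = 0.00149), having read 54.5 ± 2.43 TPM with vehicle. Mep1b, a brush border metalloprotease subunit, read 52.9 ± 11.1, 95.7 ± 1.88 and 66.0 ± 3.81 TPM, higher with ampicillin and lower with tributyrin at adjusted p = 0.00162 and 0.0165; the second was lost without ampicillin replicate 2 (0.0534) or tributyrin replicate 2 (0.0624). The medians were -0.11 and 0.052. The count of 11 called with ampicillin was 7 without ampicillin replicate 3, and the count of 5 called with tributyrin was 3 without ampicillin replicate 3 and 2 without tributyrin replicate 2.

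Of 10 tested genes known to be driven by ELF3, 5 fell and 2 rose with ampicillin, and 1 of each with tributyrin. The called share was 70% and 20%, beside 21.3% and 23.2% of all genes tested. Krt8, Krt18, Cldn7 and Muc2, all among those that fell with ampicillin, are counted in other lists too. Krt8, Krt18 and Cldn7 are general epithelial markers, and Cldn7 is also on the HNF4 list. Muc2 is also on the CDX, goblet cell and large intestinal lists, so this share is not separate from theirs. Krt8, a simple epithelial keratin, fell from 4707 ± 471 to 3569 ± 183 TPM with ampicillin (adjusted p = 0.00707), and Sprr2a3, a small proline-rich protein, rose from 1638 ± 238 to 2686 ± 149 TPM (adjusted p = 0.00161). Krt18, the partner of Krt8, rose with tributyrin from 358 ± 18.1 to 531 ± 30.7 TPM (0.56 ± 0.068, adjusted p = 0.00129). The 7 called with ampicillin were 4 without vehicle replicate 1 or ampicillin replicate 2 and 3 without ampicillin replicate 3. The 2 called with tributyrin were 5 without vehicle replicate 2 and 1 without any one ampicillin library or tributyrin replicate 2.

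**Figure D4:**
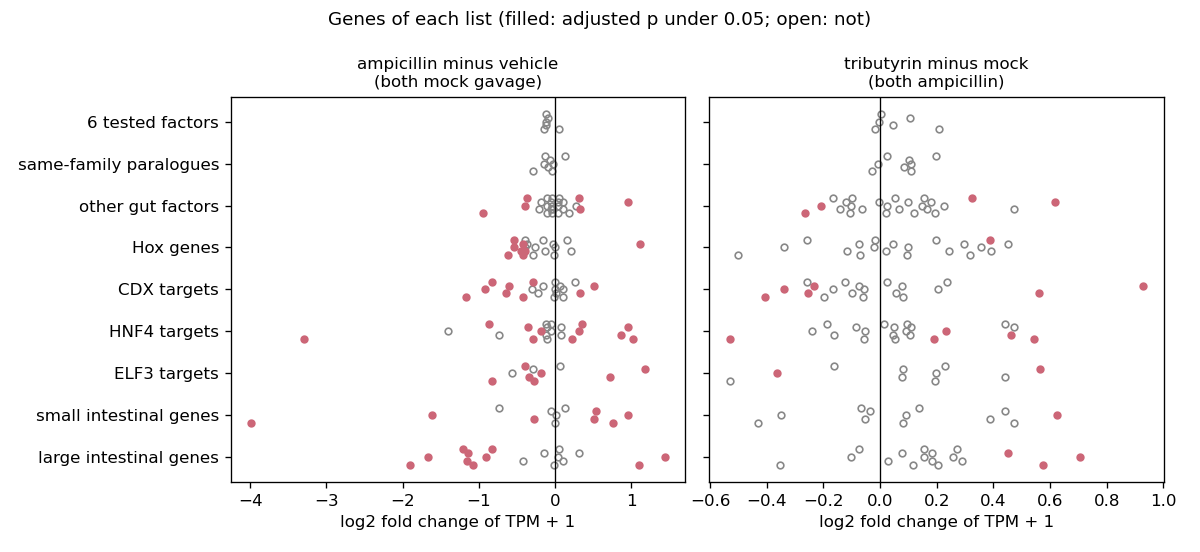
Log2 fold changes of TPM + 1 for the tested genes of each list under ampicillin (left) and under tributyrin (right), on separate axes; filled points have an adjusted p under 0.05 and open points do not. The 6 tested factors are all open and close to 0, while the lists of their known target genes hold filled points on both sides.

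Regional genes were examined because these factors divide the gut into its segments. The regional lists, too, were chosen with earlier results of these data known. Of 17 tested large intestinal markers, 8 fell and 2 rose with ampicillin (median -0.42), and 3 rose with tributyrin, a called share of 58.8% and 17.6% beside 21.3% and 23.2% of all genes tested. The goblet cell list, which shares Retnlb and Muc2 with it, moved too: 4 of 11 markers fell with ampicillin, and the sum was 11097 to 14208 TPM with vehicle, 9641 to 10861 TPM with ampicillin and 10726 to 12200 TPM with tributyrin. Retnlb, a resistin-like protein of goblet cells, fell from 383 ± 25.8 to 120.02 ± 13.1 TPM (-1.67 ± 0.13, adjusted p = 8.85e-05) and Cd177 from 6.35 ± 0.633 to 2.19 ± 0.404 TPM. The 2 that rose with ampicillin were Slc9a3 and Saa1. Over the alternatives their log2 fold changes were 1.22 to 1.63 and 0.97 to 1.25, and each call was lost in 0 of 20. Car4, a surface carbonic anhydrase, rose with tributyrin from 124 ± 5.51 to 203 ± 25.3 TPM (0.71 ± 0.094, adjusted p = 0.00176). Of 12 tested jejunal and ileal markers, 4 rose and 3 fell with ampicillin and 1 rose with tributyrin (58.3% and 8.33% called). Those that fell included Fabp6 (-3.98 ± 0.96, adjusted p = 0.0195) and Anpep, a brush border peptidase, which read 13.5, 48.4 and 14.9 TPM with vehicle and 5.92 to 6.61 TPM with ampicillin; both had their highest value in vehicle replicate 2, and the calls were lost in 3 and 4 of 20 alternatives. The 4 that rose included Creb3l3, from 5.54 ± 2.23 to 11.6 ± 4.10 TPM (0.96 ± 0.26, adjusted p = 0.0331). Slc10a2 rose too, by a log2 fold change of 0.55 to 0.93 over the alternatives. The calls of Creb3l3 and Slc10a2 were lost in 8 and 7 of 20 alternatives. Without vehicle replicate 2, 2 rose and 3 fell. In all, 4 were called without vehicle replicate 1, 2 without ampicillin replicate 1 or 2 and 0 without ampicillin replicate 3. The 1 call with tributyrin became 2 without any one vehicle library. Gata4, whose known domain is the proximal gut, was at 0.1003 TPM in vehicle replicate 2 and at 0 in the other vehicle libraries. It was also above 0 in every ampicillin library and highest, at 0.112 TPM, in ampicillin replicate 2. All these values are near 0.

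Of 18 genes of stomach and squamous epithelium, the fates that CDX2 is known to hold back, 17 stayed under 0.5 TPM in every library of all groups. The exception was Tff2, a trefoil peptide also made by goblet cells, at 2.53 ± 0.960 TPM with vehicle, 0.842 ± 0.207 TPM with ampicillin and 0.959 ± 0.461 TPM with tributyrin. Sox2, the factor of the foregut, did not pass 0.0163 TPM.

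Marker sums for T cells, erythroid cells and endothelium were low beside the 11519 to 15231 TPM of the general epithelial markers. Some of the marker sums differed between groups. The 11 measured markers of T cells and intraepithelial lymphocytes summed to 32.8 to 37.9 TPM with vehicle, 25.0 to 44.1 TPM with ampicillin and 47.1 to 87.2 TPM with tributyrin, and 4 of 9 tested rose with tributyrin, 1 without ampicillin replicate 1 or 2 or tributyrin replicate 1 or 2 and 8 without tributyrin replicate 3. The 3 measured erythroid genes summed to 13.4 to 36.6 TPM with ampicillin and 94.3 to 134 TPM with tributyrin. Endothelial markers summed to 5.37 to 6.04 TPM with vehicle, 1.52 to 1.81 TPM with ampicillin and 3.26 to 4.38 TPM with tributyrin. Both tested ones, Pecam1 and Esam (Esam was named after its values were seen), fell with ampicillin and rose with tributyrin, and 1 of them fell without vehicle replicate 3 or ampicillin replicate 1 or 3. Stem cell markers summed to 256 to 263 TPM with vehicle, 207 to 223 TPM with ampicillin and 212 to 249 TPM with tributyrin, and 4 of 11 fell with ampicillin. Beside these counts, 10.2% of all genes tested fell and 11% rose with ampicillin, and 7.54% fell and 15.6% rose with tributyrin. General epithelial markers fell in 6 of 9 cases with ampicillin, and 2 rose and 1 fell with tributyrin. Their part in the values of the 7 factors was not tested, and in such bulk libraries fewer cells of a type and less RNA per cell cannot be told apart.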

How the data were processed

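The 9 RNA libraries were grouped by sample title. The authors deposited 1 table of TPM values, 1 column a library. The submitters' processing notes list Salmon 0.8.2, DESeq2 1.20.0 and the mm10 build without saying what each did. How transcripts were summed to genes, the annotation, the filters and the strand setting: not given in the sources used here. TPM keeps no depth, so no counting interval or count model was used.

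The 7 genes were found by symbol. Genes with a mean of at least 1 TPM over the 9 libraries were kept (12155 of 24091), which left 6 of the 7. Values were taken as log2(TPM + 1), and limma 3.58.1 (R 4.3.3) fitted 3 group means to the 9 libraries together, with 6 residual degrees of freedom, moderated variances with a trend, no replicate block and Benjamini-Hochberg adjustment over all genes tested. The fit was tested on simulated data. Ratios of paralogues were compared by exact permutation. The genes and lists were chosen with earlier results of these data known. Named genes are the 7, up to 4 called members of each list and comparison by size, a short list of regional and epithelial genes fixed by name, and the nearest patterns by Pearson correlation. Some genes that this rule names are not reported here. Alternatives changed the pseudocount, the filter, the scaling, the variance trend, library weights, the samples fitted and the replicate block, and left out each library. Figures were drawn with matplotlib 3.10.9 in Python 3.11.15.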

Additional observations from a re-analysis of the deposited data

How the results depend on the processing

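The 6 tested factors stayed uncalled in the first comparison under all 20 alternatives. In the second, 1 of them, Hnf4a, was called with array quality weights (adjusted p = 0.0199) and with the replicate block (adjusted p = 0.0469), and between 0 and 1 were called when libraries were left out; the log2 fold change of Hnf4a ranged from 0.15 to 0.25. In the third, 1, Cdx1, was called with median-of-ratios scaling. The number of genes called with tributyrin was 2819 as reported, 4271 with array quality weights and 1587 to 3011 with a library left out. In the third comparison it was 3444 and 2093 to 3786. Replicate numbers gave no clear pairing of the libraries. Deviations of the 9 same-numbered pairs correlated at -0.050 to 0.11, with 1 of 9 over 0.1, and those of other-numbered pairs at -0.12 to 0.075. Of the 9 libraries, 3 correlated best with their own number in both other groups. The replicate block gave 2707, 3009 and 3569 genes called in the 3 comparisons, against 2587, 2819 and 3444 without it. The log2 ratio of Gata6 over Gata4 moved with a pseudocount of 0.1, where the 3 differences were -0.23, 0.52 and 0.29, Gata4 being near 0. TPM keeps no depth, so counting error could not be separated from the spread between libraries.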
